A study of Mus musculus with 25 samples.

Results

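The genes described here encode the proteins at the core of the spliceosome and the SR proteins that guide it, measured in mouse preimplantation embryos. They were taken as every expression row whose gene symbol begins with Snrp, Sf3a, Sf3b or Srsf, leaving out Snrpn, an imprinted gene. This gave 31 genes of 24708 gene loci, namely 7 genes of the Sm core, 2 of the U1 particle, 2 of the U2 particle, 3 of SF3a, 6 of SF3b and 11 SR protein genes. The study sequenced RNA from embryos of the BDF1 mouse strain at embryonic day 4.0 (blastocysts) and embryonic day 1.5 (2-cell embryos). Blastocysts carried the labels Fzr1-OE (3 libraries) and Control (2 libraries). 2-cell embryos carried the labels sIVF, IVF and WT (2 libraries each). Fzr1 is an activator of the anaphase-promoting complex, and IVF stands for in vitro fertilisation. The labels do not spell out sIVF, how Fzr1 was overexpressed, or how many embryos made up a library.

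Most mouse protein-coding genes contain introns, which the spliceosome removes from the primary transcript. The U1, U2, U4 and U5 small nuclear ribonucleoproteins (snRNPs) each carry a ring of Sm proteins around their RNA. U1 recognises the 5′ splice site, and U2, with the SF3a and SF3b complexes, recognises the branch point. SR proteins bind exonic sequences through their RNA recognition motifs and recruit these particles through an arginine and serine rich domain. In the mouse embryo the first large wave of zygotic transcription comes at the 2-cell stage, when many transcripts stored in the egg are still being cleared. Inhibition of SF3B1 in mouse embryonic stem cells switches on genes of the 2-cell stage.

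Expression was given as FPKM, a level scaled for transcript length and library size. The deposited confidence bounds implied 9324167 to 10483442 fragments per blastocyst library and 4742698 to 6377606 per 2-cell library, and all FPKM in a library summed to between 502931 and 529532 in blastocysts and between 298129 and 335987 in 2-cell embryos. Between libraries of a stage, Pearson r over loci was 0.984 to 0.990 in blastocysts and 0.917 to 0.937 in 2-cell embryos. The 10 blastocyst markers, among them Krt8 and Pou5f1, summed to between 3483 and 5522 FPKM in blastocysts and between 9.98 and 27.2 FPKM in 2-cell embryos. Krt8 and Krt18 made up most of the blastocyst sum. Tfap2c, also of this list, overlapped between the stages, at 18.0 to 27.9 FPKM in blastocysts and 8.99 to 19.6 FPKM in 2-cell embryos. The 7 listed markers of the 2-cell stage did not separate the stages as a sum, at 95.5 to 115 FPKM in blastocysts and 54.3 to 132 FPKM in 2-cell embryos. Among them Eif1a was higher in blastocysts (85.7 to 105 FPKM against 20.7 to 69.7 FPKM), while Zscan4c and Zscan4d were listed at 0 in the 5 blastocyst libraries and above 0 in the 6 of 2-cell embryos. Markers of cumulus and granulosa cells summed to at most 3.92 FPKM in any library, and Has2, Fshr, Foxl2, Amh, Cyp19a1 and Inha among them were listed at 0 throughout.

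The splicing genes were abundant at both stages, and 28 of the 31 were above 0 in every library. Their summed level was 4066, 4228 and 4368 FPKM in the libraries labelled Fzr1-OE and 3960.0 and 3894 FPKM in Control blastocysts. In 2-cell embryos it was 3976 and 3921 FPKM in sIVF, 4279.8 and 4242 FPKM in IVF, and 3693 and 3821 FPKM in WT libraries. The sums of the 2 stages overlapped, but as a share of all FPKM the genes held 0.748% to 0.844% in blastocysts and 1.18% to 1.37% in 2-cell embryos. Behind the overlapping sums the makeup differed. Sm core genes summed to between 1483 and 1604 FPKM in blastocysts, against 2042 to 2294 FPKM in 2-cell embryos. SR protein genes summed to between 833 and 921 FPKM in blastocysts, against 490.05 to 576 FPKM in 2-cell embryos. SF3b genes summed to between 765 and 923 FPKM in blastocysts, against 431 to 713 FPKM in 2-cell embryos. These sums are a description and were not tested. FPKM is relative to the library, so they do not give amounts per embryo. In such bulk samples fewer cells with a transcript and less of it per cell cannot be told apart.

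**Figure D1:**
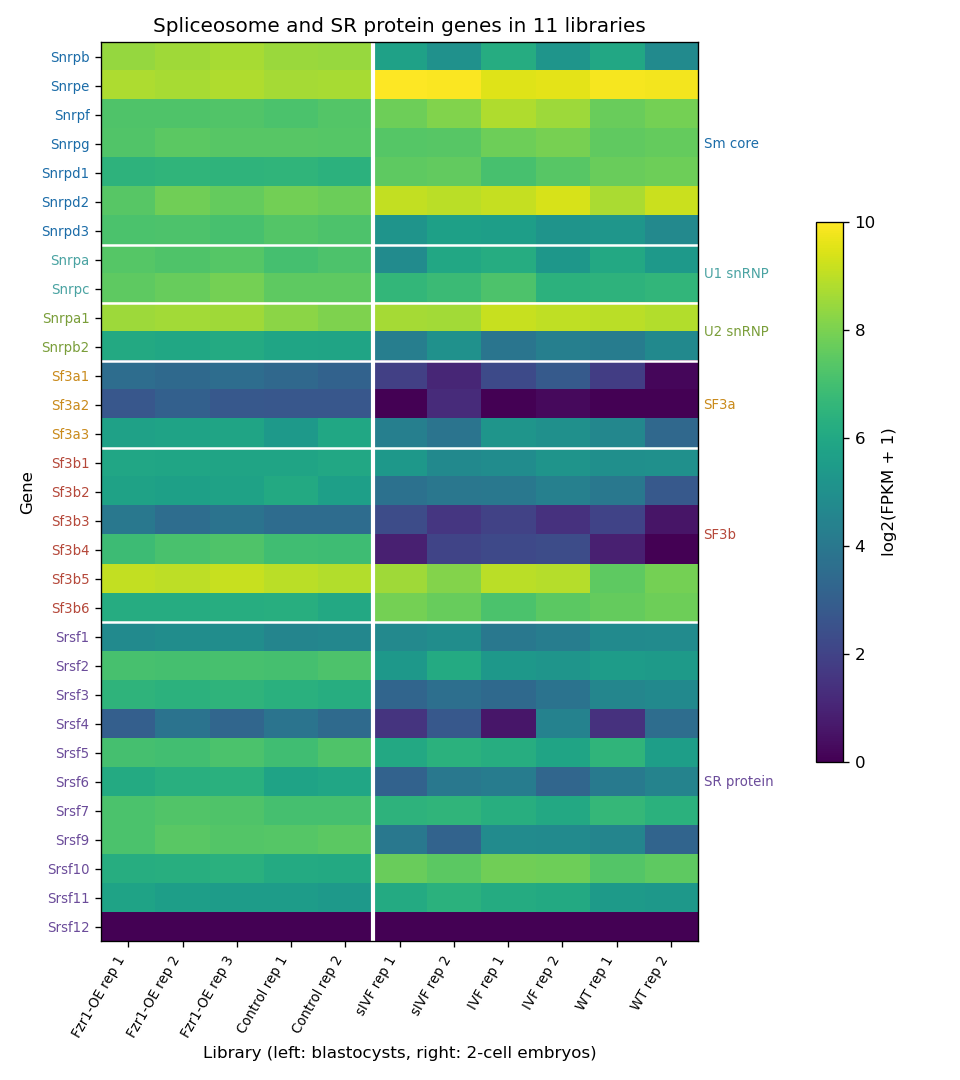
Level of each gene, as log2(FPKM + 1) by colour, in the 5 blastocyst libraries (left of the white line) and the 6 libraries of 2-cell embryos (right), with genes grouped by role. Snrpe is the brightest row in 2-cell embryos at 722 to 997 FPKM, Srsf12 is at 0 throughout, and Sf3b4 is dark in 2-cell embryos and bright in blastocysts.

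Levels spanned a wide range within a stage. Over the blastocyst libraries the highest mean belonged to Sf3b5, at 460.05 to 577 FPKM, and over the 2-cell libraries to Snrpe, at 722 to 997 FPKM. At the other end, Srsf12, whose product represses splicing in a way related to that of Srsf10, was listed at 0 in all 11 libraries. Next to it in both stages was Sf3a2. It had 5.54, 7.39 and 5.71 FPKM in the libraries labelled Fzr1-OE and 5.57 and 5.58 FPKM in Control blastocysts. In 2-cell embryos it had 0 and 1.36 FPKM in sIVF, 0 and 0.186 FPKM in IVF, and was listed at 0 in both WT libraries. Every symbol of the group had a single locus. The rows of Sf3a3, Sf3b3, Srsf4, Snrpf and Snrpa overlapped another listed locus, and because the strandedness of the counting is not given in the sources used here, their reads are uncertain. Reads of Snrpb may be shared with the near-identical Snrpn, and those of small Sm genes with processed pseudogenes.

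The largest contrast among these genes was between the groups of the 2 stages that carry no labelled treatment, Control blastocysts and WT 2-cell embryos. The comparison asks how the supply of splicing factor transcripts differs between the onset of zygotic transcription and the blastocyst. All 3 genes of SF3a, both of the U1 particle, 5 of the 6 SF3b genes and 6 of the 10 SR protein genes tested rose, while 4 of the 7 Sm core genes fell. Of 30 genes tested, 19 rose and 7 fell at a Benjamini-Hochberg adjusted p under 0.05 (limma, fitted over all loci and 11 libraries). Sf3a2, among the 19, passed the filter on low values only through its level in blastocysts. Of all 9762 loci tested, 45.8% rose and 19.6% fell. The median log2 fold change was 1.17 over the group and 0.88 over all loci, so changes also need reading against that general shift. Set against it, 19 of the 30 lay above and 11 below. Control and WT libraries did not overlap in 19 genes that were higher and 9 that were lower, beside 56.4% and 26.1% of all loci. With quantile normalization the split of calls was 10 that rose and 11 that fell, and with upper-quartile scaling 12 and 10. The titles of the Control libraries do not say how those embryos were fertilised. Stage, the production of the embryos and the making of the libraries cannot be told apart.

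**Figure D2:**
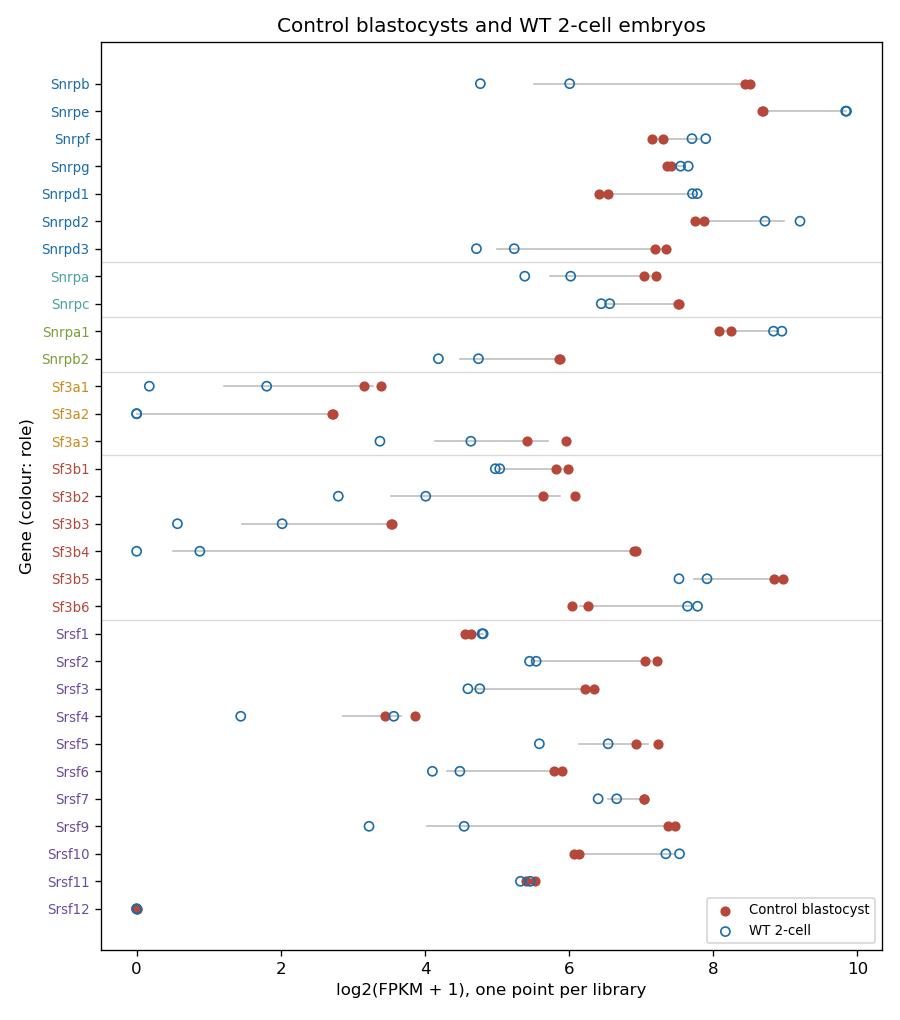
Each of the 31 genes in Control blastocysts (filled, 2 libraries) and WT 2-cell embryos (open, 2 libraries) on a log2(FPKM + 1) axis, with a grey line joining the group means. Sf3b4 shows the widest gap, at 121 and 118 FPKM against 0.836 and 0 FPKM, and the points of 5 of the 7 Sm genes lie lower in blastocysts.

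The 3 SF3a genes rose. SF3a joins the U2 particle with SF3b, and Sf3a1, at chr11:4060357-4082544 of mm9, encodes its largest subunit. Loci are given as whole gene spans in mm9, and exons are not stated. Sf3a1 had 9.53 and 7.93 FPKM in Control blastocysts against 2.49 and 0.130 FPKM in WT 2-cell embryos (log2 fold change 2.29, SE 0.51, limma adjusted p = 0.00383). Sf3a3 had 41.8 and 61.0 FPKM in Control blastocysts against 23.9 and 9.37 FPKM in WT embryos (log2 fold change 1.68, SE 0.39, limma adjusted p = 0.00432). For Sf3a2 no fold is given, since both WT libraries were listed at 0. It passed the filter on low values only through blastocysts, with a mean of 5.96 FPKM there and 0.257 FPKM in 2-cell embryos. Its call (limma adjusted p = 0.000292) could therefore hardly have been a fall. For none of the 3 did the groups overlap, and replicate 2 of WT was the lower one for both Sf3a1 and Sf3a3. Without it the log2 fold changes were 1.47 and 1.05, and without replicate 1 of WT they were 3.10 and 2.31. For Sf3a3 the call was lost under quantile normalization (adjusted p = 0.0837) and in a limma fit of the 2 groups alone (adjusted p = 0.0609).

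The 6 SF3b genes held both the largest rise and the largest fall of the group. Sf3b4, at chr3:95976429-95981487, encodes the SF3b subunit that contacts RNA upstream of the branch point. It had 121 and 118 FPKM in Control blastocysts, against 0.836 and 0 FPKM in WT 2-cell embryos. These values rest on an estimated 3182 and 3148 fragments in Control blastocysts and 16.0 and 0 in WT embryos. The 3 libraries labelled Fzr1-OE were at 114, 137 and 149 FPKM, and the other 2-cell libraries at 0.858 and 3.19 FPKM in sIVF and 3.61 and 4.05 FPKM in IVF. The 5 blastocyst libraries all lay far above the 6 of 2-cell embryos. The log2 fold change was 6.48 (SE 0.41, limma adjusted p = 2.44e-06) with a pseudocount of 1 and 8.61 with 0.1, so its size depends on that choice.

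Sf3b6, at chr12:4824414-4834465, ran the other way. It encodes a small protein that lies next to the branch point adenosine. It had 76.0 and 64.6 FPKM in Control blastocysts, against 199 and 219 FPKM in WT 2-cell embryos. It fell by 1.56 on the log2 scale (SE 0.16, limma adjusted p = 3.67e-05), the largest fall among the 30, and the groups did not overlap. Of the remaining subunits, Sf3b2 rose by 2.45 (SE 0.37) and Sf3b3 by 2.25 (SE 0.48) on the log2 scale. Without replicate 2 of WT these rises were 1.85 and 1.52, and without replicate 1 of WT 3.06 and 2.97. Sf3b5, a small subunit, had 500 and 460.05 FPKM in Control blastocysts against 183 and 239.95 FPKM in WT embryos (log2 fold change 1.19, SE 0.17, limma adjusted p = 0.000264). This rise did not separate the stages. The IVF libraries of 2-cell embryos, at 493 and 478 FPKM, lay within the blastocyst range of 460.05 to 577 FPKM, while sIVF had 379 and 278 FPKM. Sf3b1, the largest subunit and the one that holds the branch point, had 55.6 and 62.3 FPKM in Control blastocysts against 30.5 and 31.8 FPKM in WT embryos. It rose by 0.90 on the log2 scale (SE 0.23, limma adjusted p = 0.00706), which was 0.01 above the median of all loci. Under quantile normalization it was 0.02 (adjusted p = 0.947), and with the trend in transcript length removed it was 2.13. Sf3b1 thus lay at the general shift as deposited, while Sf3b4 and Sf3b6 moved to either side of it.

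Promoter sequences are shown for 2 SF3a genes that rose, for an SR protein gene that rose and for Sf3b6, which fell, so that a reader can set them against these values. The 150 bases before the annotated start come from RefSeq (GRCm38.p6, plus strand), while the expression files use mm9. They lie at chr11:4160204-4160353 (Sf3a1), chr10:80798585-80798734 (Sf3a2), chr17:29032510-29032659 (Srsf3) and chr12:4817458-4817607 (Sf3b6). Capitals mark CCGGAAG (bound by ETS factors), GGGCGG (the GC box), CCAAT and TATAAA or the reverse complement of one of them.
Sf3a1: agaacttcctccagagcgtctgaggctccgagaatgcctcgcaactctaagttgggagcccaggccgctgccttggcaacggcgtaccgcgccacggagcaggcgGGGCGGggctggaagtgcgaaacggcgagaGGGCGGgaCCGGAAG
Sf3a2: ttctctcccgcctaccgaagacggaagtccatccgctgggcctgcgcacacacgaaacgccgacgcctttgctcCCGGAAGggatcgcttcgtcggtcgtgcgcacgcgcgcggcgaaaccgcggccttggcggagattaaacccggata
Srsf3: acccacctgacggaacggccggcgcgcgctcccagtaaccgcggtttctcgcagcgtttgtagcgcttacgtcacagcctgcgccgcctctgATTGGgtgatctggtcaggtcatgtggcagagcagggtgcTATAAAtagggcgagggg
Sf3b6: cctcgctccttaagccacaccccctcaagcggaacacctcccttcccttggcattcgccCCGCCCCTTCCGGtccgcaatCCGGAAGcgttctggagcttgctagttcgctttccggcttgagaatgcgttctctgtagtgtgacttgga
Sf3a1, Sf3a2 and Sf3b6 carried CCGGAAG or its reverse complement, and in Sf3b6 one copy directly follows a GC box. Srsf3 carried a reversed CCAAT box and TATAAA instead.

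Promoters of 300 bases, 250 before the start and 50 after it, were found for 27 of the 31 genes, in 32 windows. Snrpb, Snrpd1, Sf3b4 and Sf3b5 had no entry. CCGGAAG, searched on both strands, stood in 17 of the 32 windows (53.1%), from 14 genes, and in 8.86% of all 32851 windows. The GC box stood in 22 windows (68.8%) and in 35.7% of all windows. CCAAT was in 31.2% of the windows and 37.4% of all, and TATAAA in 12.5% and 13.6%. TGACGTCA (CRE) and CACGTG (E-box) were in 2 windows each. The median GC content was 60.7% in these windows and 52.7% in all. CCGGAAG was present in 10 of 18 windows of genes that rose between stages, 2 of 6 of genes that fell and 5 of 7 of genes with no call. Windows of 1 gene can overlap, and a match is a description of letters, not of binding.

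In the Sm core the genes moved in opposite directions, although their proteins sit together in 1 ring. Snrpb, at chr2:129997372-130005100, encodes SmB, and Snrpd3 encodes SmD3. Snrpb had 363 and 346 FPKM in Control blastocysts against 63.3 and 26.3 FPKM in WT 2-cell embryos. That is a rise of 3.09 on the log2 scale (SE 0.43, limma adjusted p = 0.000254), or 2.47 without replicate 2 of WT and 3.71 without replicate 1. Snrpd3 had 161 and 145 FPKM in Control blastocysts against 36.7 and 25.2 FPKM in WT embryos (log2 fold change 2.29, SE 0.25, limma adjusted p = 5.48e-05). SmB and SmD3 form a pair before the ring closes, and their genes were the 2 of the 7 that rose.

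The other Sm genes were lower in blastocysts. Snrpe, at chr1:135500448-135506857, had 407 and 413 FPKM in Control blastocysts against 920.4 and 913 FPKM in WT 2-cell embryos. It fell by 1.16 on the log2 scale (SE 0.07, limma adjusted p = 2.41e-06). Snrpd2 had 233 and 213 FPKM in Control blastocysts against 419.55 and 588 FPKM in WT embryos and fell by 1.15 (SE 0.19). Snrpd1 had 92.4 and 84.5 FPKM in Control blastocysts against 209 and 218 FPKM in WT embryos and fell by 1.26 (SE 0.14). Snrpf had 142 and 158 FPKM in Control blastocysts against 207 and 237 FPKM in WT embryos and fell by 0.57 (SE 0.14, limma adjusted p = 0.00739). No group pair overlapped in these 4 genes. The call of Snrpf was lost without replicate 1 of Control (adjusted p = 0.0524). Snrpg, with 169 and 162.5 FPKM in Control blastocysts and 186 and 200.2 FPKM in WT embryos, did not pass (log2 fold change -0.22, limma adjusted p = 0.144).

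These opposite moves brought the Sm genes closer together in blastocysts. The highest Sm gene, always Snrpe, exceeded the lowest by a ratio of 5.07, 4.40 and 4.93 in the libraries labelled Fzr1-OE and 4.40 and 4.89 in Control blastocysts. In 2-cell embryos the ratio was 28.2 and 30.7 in sIVF, 15.0 and 21.9 in IVF, and 25.0 and 36.2 in WT libraries. The lowest ratio of any 2-cell library thus lay above the highest of any blastocyst library. The lowest gene was Snrpd1 in blastocysts and Snrpd3 or Snrpb in 2-cell embryos. The ratio was not tested.

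**Figure D3:**
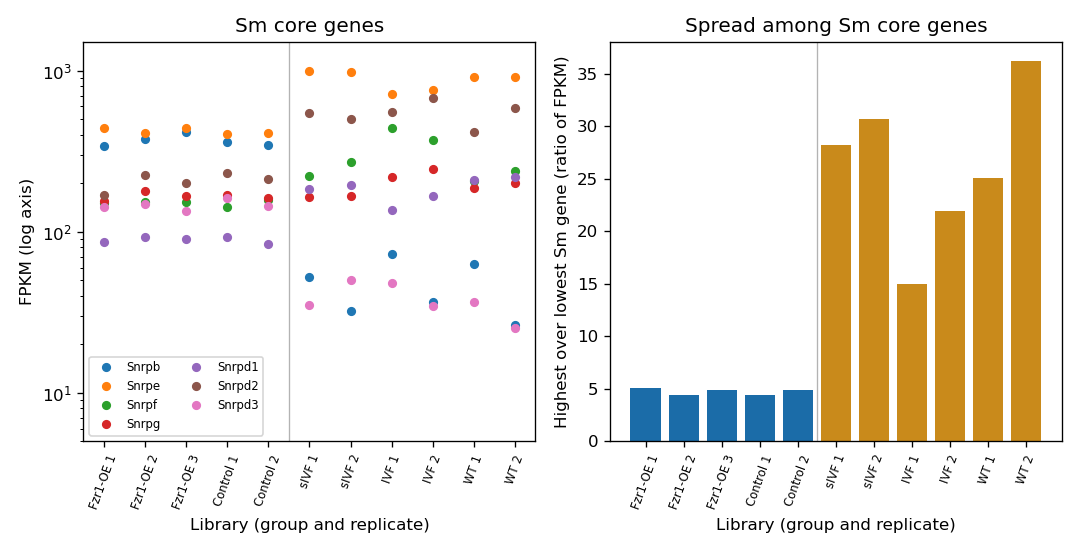
Left, FPKM (log axis) of the 7 Sm core genes in each library. Right, ratio of the highest to the lowest Sm gene in each library, with blastocyst bars in blue and 2-cell bars in ochre, which runs from 4.40 to 5.07 in blastocysts and from 15.0 to 36.2 in 2-cell embryos.

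The U1 genes rose, and the U2 genes split. Snrpa, for the A protein of U1, had 131 and 147 FPKM in Control blastocysts against 63.9 and 40.8 FPKM in WT 2-cell embryos (log2 fold change 1.42, SE 0.40, limma adjusted p = 0.0124). Snrpc, for the C protein, which steadies the pairing of U1 with the 5′ splice site, had 183 and 182 FPKM in Control blastocysts against 86.1 and 93.6 FPKM in WT embryos. It rose by 1.02 on the log2 scale (SE 0.24, limma adjusted p = 0.00480). Both U1 calls were lost under quantile normalization and upper-quartile scaling, with adjusted p-values of 0.210 and 0.127 for Snrpa and 0.439 and 0.208 for Snrpc. The call of Snrpa was also lost without replicate 2 of WT (adjusted p = 0.0781) or replicate 2 of Control (adjusted p = 0.0654).

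Snrpa1 and Snrpb2 encode the A′ and B″ proteins of U2, which bind U2 RNA as a pair. Snrpa1 had 302 and 270.1 FPKM in Control blastocysts against 494 and 456 FPKM in WT embryos and fell by 0.73 (SE 0.10, limma adjusted p = 0.000180). Over all groups the stages overlapped for Snrpa1, with 405 and 392 FPKM in sIVF embryos and 374, 395 and 380 FPKM in blastocysts labelled Fzr1-OE. Snrpb2 had 57.6 and 57.0 FPKM in Control blastocysts against 17.2 and 25.8 FPKM in WT embryos and rose by 1.40 (SE 0.30, limma adjusted p = 0.00284). The rise of Snrpb2 did not pass under quantile normalization (adjusted p = 0.187) or upper-quartile scaling (adjusted p = 0.0567).

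Of the 10 SR protein genes tested, 6 rose, 1 fell and 3 did not pass, where 45.8% of all loci rose and 19.6% fell. Srsf9 had the largest rise, with 164 and 176 FPKM in Control blastocysts against 22.3 and 8.34 FPKM in WT 2-cell embryos. It rose by 3.53 on the log2 scale (SE 0.40, limma adjusted p = 7.72e-05), or 2.87 without replicate 2 of WT and 4.19 without replicate 1. Srsf3 encodes the smallest SR protein, which also serves mRNA export, and mouse embryos lacking it fail before the blastocyst stage. It had 80.2 and 73.2 FPKM in Control blastocysts against 23.2 and 26.1 FPKM in WT embryos. It rose by 1.60 on the log2 scale (SE 0.22, limma adjusted p = 0.000218). Srsf2 (SC35), a marker of nuclear speckles, had 132 and 148 FPKM in Control blastocysts against 45.6 and 42.7 FPKM in WT embryos (log2 fold change 1.64, SE 0.23). For these 3 genes every blastocyst library lay above every 2-cell library.

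Srsf10, which represses splicing when it is dephosphorylated, was the SR protein gene that fell. It had 69.1 and 66.0 FPKM in Control blastocysts against 161 and 184 FPKM in WT embryos and fell by 1.34 (SE 0.13, limma adjusted p = 3.64e-05). All 5 blastocyst libraries, at 66.0 to 79.8 FPKM, lay below the 6 of 2-cell embryos, at 161 to 224 FPKM. Srsf6 rose by 1.55 (SE 0.35), Srsf5 by 1.02 (SE 0.30) and Srsf7 by 0.51 (SE 0.15). The rises of Srsf6 and Srsf5 lost their call under both scalings. The call of Srsf5 was also lost without replicate 2 of WT (0.54, adjusted p = 0.0846) or replicate 2 of Control (adjusted p = 0.0903). That of Srsf7 was lost without replicate 2 of WT (adjusted p = 0.0731) or either Control replicate (adjusted p = 0.0555 and 0.0534). Srsf7, an export adaptor, reversed, with log2 fold changes of -0.36 (adjusted p = 0.0403) under quantile normalization and -0.14 under upper-quartile scaling. Srsf1, the founding member of the family, had 22.6 and 23.9 FPKM in Control blastocysts and 26.7 and 27.0 FPKM in WT embryos and did not pass (log2 fold change -0.20, limma adjusted p = 0.381). Srsf11 (0.07) and Srsf4 (1.14, SE 1.13) did not pass either. Srsf4 varied widely within groups, with 13.5 and 9.86 FPKM in Control blastocysts and 1.72 and 10.9 FPKM in WT embryos, and its fold change was 0.08 without replicate 1 of WT and 2.2035 without replicate 2.

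Across the 21 alternative settings between 21 and 26 of the genes passed. Settings that left out an sIVF, IVF or Fzr1-OE library, or changed only the filter or variance estimation, could not move a fold change. They changed only its estimated spread, the adjustment or the loci tested. The rises of Sf3b4, Srsf9, Snrpb, Snrpd3, Sf3a1, Sf3b2, Sf3b3, Srsf2 and Srsf3 and the falls of Sf3b6, Srsf10, Snrpd1, Snrpd2, Snrpe and Snrpa1 held in all 21. Sf3a2 held in the 20 that tested it, but in the reported fit only its level in blastocysts brought it past the filter. Sf3b5 lost its call under quantile normalization (adjusted p = 0.0921). Under quantile normalization and upper-quartile scaling the 3 genes Snrpg (-1.03 and -0.87), Srsf1 (-1.06 and -0.83) and Srsf11 (-0.80 and -0.57) passed as lower in blastocysts.

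In blastocysts, the comparison of the libraries labelled Fzr1-OE with Control asks whether a raised dose of Fzr1 alters the embryo's RNA. Fzr1 itself was at 12.7, 15.5 and 17.1 FPKM in the libraries labelled Fzr1-OE and 16.5 and 16.5 FPKM in Control, so it was not higher (log2 fold change -0.13, SE 0.16, limma adjusted p = 0.713). Directions in blastocysts therefore follow the labels. Splicing genes differed little, and the U2 gene Snrpa1 was the 1 of 30 that passed. Of all 9439 loci tested, 2.29% rose and 1.92% fell.

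Snrpa1, at chr7:73205222-73219473, had 374, 395 and 380 FPKM in the libraries labelled Fzr1-OE against 302 and 270.1 FPKM in Control. The groups did not overlap, and the log2 fold change was 0.42 (SE 0.07, limma adjusted p = 0.0122). The call was lost without replicate 2 of the libraries labelled Fzr1-OE (adjusted p = 0.0525) and without replicate 2 of Control (log2 fold change 0.34, adjusted p = 0.123). It was also lost with no filter on low values (adjusted p = 0.111) and with no intensity trend (adjusted p = 0.208).

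The next 4 genes by p-value did not pass. Srsf6, an SR protein gene, had 68.6, 77.9 and 79.5 FPKM in the libraries labelled Fzr1-OE against 54.2 and 59.0 FPKM in Control, without overlap (log2 fold change 0.41, SE 0.10, limma adjusted p = 0.0622). It passed with a filter of 5 FPKM (adjusted p = 0.0447) and without replicate 1 of the libraries labelled Fzr1-OE (adjusted p = 0.0445). Sf3b5 had 540.45, 512 and 577 FPKM in the libraries labelled Fzr1-OE against 500 and 460.05 FPKM in Control (log2 fold change 0.18, limma adjusted p = 0.203). Srsf7 (0.19, adjusted p = 0.216) and Snrpa (0.19, adjusted p = 0.237) followed.

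The direction was not the same in all genes. In 11 of the 30 genes every library labelled Fzr1-OE lay above both Control libraries, and in 0 every one lay below, against 19% and 18.4% of all loci. The median log2 fold change was 0.11 over the 30 genes and 0.01 over all loci, and 22 of the 30 were above 0, against 50.7% of all loci. The 8 below 0 included Srsf4 (-0.26) and Snrpd2 (-0.18). Blastocyst markers differed with the label in both directions. They summed to between 3483 and 3554 FPKM in the libraries labelled Fzr1-OE and between 5469 and 5522 FPKM in Control, and most of that sum was Krt8 and Krt18. Of the 10 markers, 3 (Krt8, Krt18 and Eomes) were lower in every library labelled Fzr1-OE than in both Control libraries, 3 (Pou5f1, Nanog and Gata6) were higher and 4 overlapped. Of the 7 listed markers of the 2-cell stage, 3 (Zfp352, Usp17lc and Tdpoz4) were higher without overlap, with Tdpoz4 at 6.21 to 6.89 FPKM under the label Fzr1-OE against 0 in both Control libraries. The part of these markers in the splicing gene values was not tested.

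**Figure D4:**
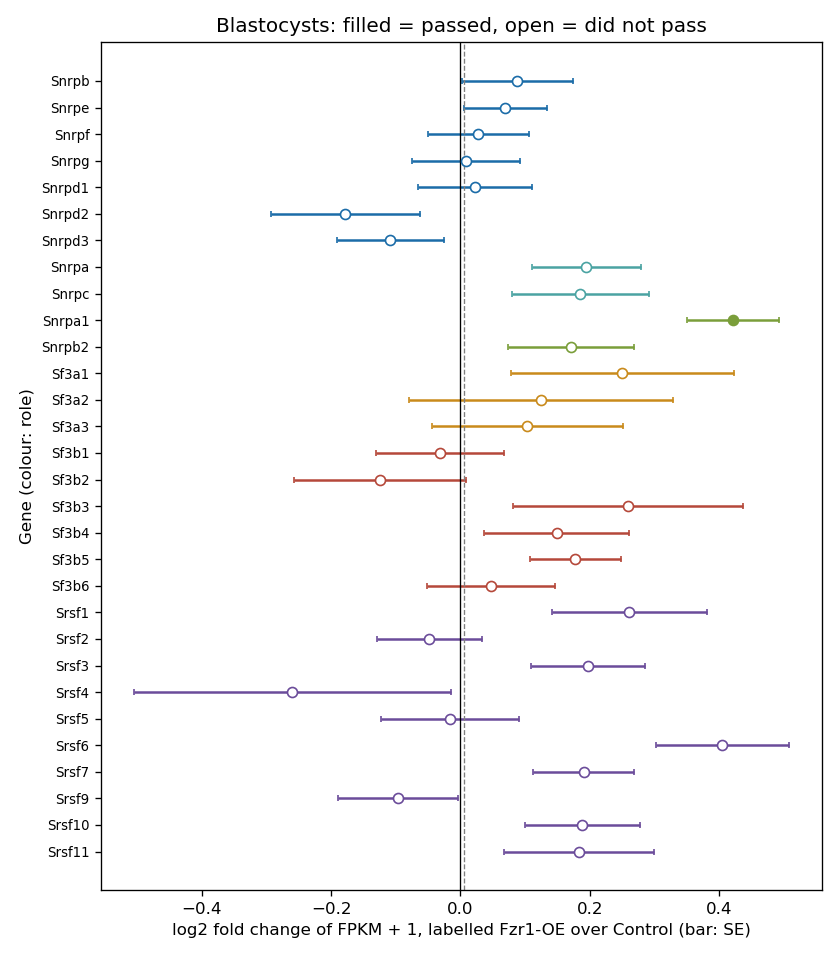
Log2 fold change of FPKM + 1, libraries labelled Fzr1-OE (n = 3) over Control (n = 2), for the 30 genes tested, with SE bars. The dashed line is the median of all loci, 0.01, and the filled point, Snrpa1 at 0.42, is the one that passed.

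At the 2-cell stage, the comparisons of sIVF, IVF and WT embryos ask what fertilisation in vitro does to the early embryo's RNA. None of the 29 genes tested passed in any of the 3 comparisons. Over all 8246 loci limma called 1 locus higher (0.0121%) and 0 lower in IVF against WT, and 0 in either direction for sIVF against WT and sIVF against IVF. At an unadjusted p under 0.05, 5 genes were higher and 3 lower in IVF against WT, where all loci gave 6.86% and 5.55%. For sIVF against WT these were 2 higher and 1 lower, against 4.61% and 2.49% of all loci, and for sIVF against IVF 2 higher and 5 lower, against 6.29% and 5.52%. The 3 comparisons share libraries, so their values are given side by side and are not independent.

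Sf3b5, at chr10:12728256-12728989, had the smallest p in IVF against WT. It had 379 and 278 FPKM in sIVF, 493 and 478 FPKM in IVF, and 183 and 239.95 FPKM in WT embryos. Levels were lowest in WT and highest in IVF, and no pair of groups overlapped. The log2 fold change was 1.21 for IVF over WT (SE 0.21, limma adjusted p = 0.0953), 0.63 for sIVF over WT (SE 0.21, adjusted p = 0.553) and -0.58 for sIVF over IVF (SE 0.21, adjusted p = 0.331). The value for sIVF over WT was 0.41 without replicate 1 of sIVF, and that for sIVF over IVF was -0.36 without replicate 2 of sIVF. Beside it in SF3b, Sf3b6 had 243 and 204 FPKM in sIVF, 144 and 176 FPKM in IVF, and 199 and 219 FPKM in WT embryos. The IVF libraries were the low ones for Sf3b6 and the high ones for Sf3b5, and neither passed.

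Srsf11 and Srsf3 set sIVF and IVF apart from WT in opposite directions, without passing. Srsf11 had 68.9 and 83.6 FPKM in sIVF, 70.2 and 66.1 FPKM in IVF, and 43.0 and 39.1 FPKM in WT embryos. The log2 fold change was 0.87 for sIVF over WT (SE 0.25, limma adjusted p = 0.508) and 0.72 for IVF over WT (SE 0.25, adjusted p = 0.312). Srsf3 had 8.46 and 11.5 FPKM in sIVF, 9.73 and 13.1 FPKM in IVF, and 23.2 and 26.1 FPKM in WT embryos. Its log2 fold change was -1.23 for sIVF over WT (SE 0.40, limma adjusted p = 0.550) and -1.06 for IVF over WT (SE 0.40, adjusted p = 0.342). For both genes the sIVF and IVF libraries overlapped each other and stood apart from WT, which is 1 pair of libraries shared by both comparisons.

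Among the Sm genes, Snrpf and Snrpe had the smallest p-values between sIVF and IVF, and neither passed. Snrpf had 222 and 272 FPKM in sIVF, 442 and 370 FPKM in IVF, and 207 and 237 FPKM in WT embryos. The IVF libraries stood above the others, with a log2 fold change of -0.72 for sIVF over IVF (SE 0.19, limma adjusted p = 0.223) and 0.86 for IVF over WT (SE 0.19, adjusted p = 0.137). Snrpe had 997 and 984 FPKM in sIVF, 722 and 765 FPKM in IVF, and 920.4 and 913 FPKM in WT embryos, so IVF was lowest and sIVF highest. Its log2 fold change was 0.41 for sIVF over IVF (SE 0.12, limma adjusted p = 0.248). Snrpg had 165 and 167 FPKM in sIVF, 220.1 and 246 FPKM in IVF, and 186 and 200.2 FPKM in WT embryos (-0.49 for sIVF over IVF, limma adjusted p = 0.336). Snrpd1 had 183 and 195 FPKM in sIVF, 136 and 168 FPKM in IVF, and 209 and 218 FPKM in WT embryos (-0.49 for IVF over WT, limma adjusted p = 0.351). IVF thus stood high for Snrpf and Snrpg and low for Snrpe and Snrpd1.

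**Figure D5:**
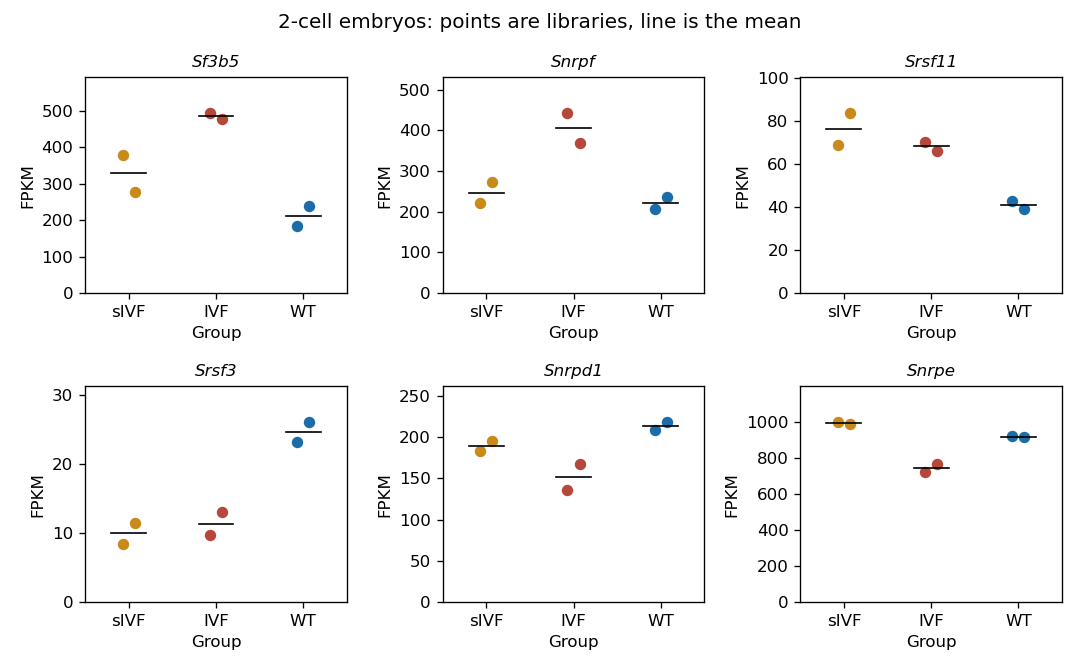
FPKM of 6 splicing genes in the 2-cell libraries (points) labelled sIVF, IVF and WT, with the group mean as a line and each axis starting at 0. WT stands apart from both other groups for Srsf11 and Srsf3, with 39.1 and 43.0 FPKM and with 23.2 and 26.1 FPKM, and IVF stands apart for Snrpf and Snrpe.

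The U2 gene Snrpa1 had 405 and 392 FPKM in sIVF, 576 and 523 FPKM in IVF, and 494 and 456 FPKM in WT embryos. Its log2 fold change was -0.46 for sIVF over IVF (SE 0.15, limma adjusted p = 0.274) and -0.25 for sIVF over WT (SE 0.15, adjusted p = 0.775). The sIVF libraries were below both other groups. Srsf6 had 7.94 and 15.1 FPKM in sIVF and 16.2 and 21.4 FPKM in WT embryos (log2 fold change -0.71, SE 0.49, limma adjusted p = 0.791). It was -0.28 without replicate 1 of sIVF and -1.13 without replicate 2.

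Over the 29 genes, the median log2 fold change was 0.27 for IVF over WT, 0.09 for sIVF over WT and -0.17 for sIVF over IVF, beside 0.09, 0.06 and -0.02 over all loci. The libraries did not overlap in 11 genes higher and 7 lower for IVF against WT, where all loci gave 22.8% and 19.3%. For sIVF against WT these were 5 and 5 genes, against 20.6% and 15.3% of loci. For sIVF against IVF they were 5 and 11 genes, against 21.7% and 21% of loci. Markers of the 2-cell stage summed to 132 FPKM in both sIVF libraries, 54.3 to 76.6 FPKM in IVF and 96.2 to 125 FPKM in WT embryos, of which Eif1a gave 69.7 and 48.9 FPKM in sIVF, 20.7 and 27.5 FPKM in IVF, and 46.0 and 45.9 FPKM in WT embryos. Their part in these differences was not tested.

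Other genes of the splicing pathway were read from 8 lists covering the tri-snRNP, the Prp19 complex, LSm proteins, the minor spliceosome, snRNP assembly, SR protein kinases and import, hnRNPs and factors that help U1 and U2 bind. In the 3 comparisons of 2-cell embryos 0 of the 106 tested passed. In blastocysts 2 of 109 rose (1.83%) and 0 fell under the label Fzr1-OE, where 2.29% of all loci rose and 1.92% fell. The 2 that rose were Snrnp40, of the U5 particle, and Hnrnpc. Snrnp40 had means of 139 FPKM under Fzr1-OE and 109 FPKM in Control (log2 fold change 0.35, SE 0.08, limma adjusted p = 0.0386). Hnrnpc had 213 and 172 FPKM (log2 fold change 0.31, SE 0.07, limma adjusted p = 0.0477). With no filter on low values 0 of all loci passed, so neither call held there.

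Between Control blastocysts and WT 2-cell embryos 36 of 107 rose (33.6%) and 26 fell (24.3%), where 45.8% of all loci rose and 19.6% fell. The hnRNP list held 9 that rose and 8 that fell of 23, among them Hnrnpk, with a mean of 374 FPKM in Control blastocysts against 42.0 FPKM in WT embryos (log2 fold change 3.13, SE 0.17, limma adjusted p = 1.27e-06). Factors that help U1 and U2 bind held 7 and 4 of 17, with Puf60 at 2.09 (SE 0.19), U2af1 at 2.97 (SE 0.43) and Rbm17 at -0.93 (SE 0.19). The LSm list held 5 and 2 of 9, with Lsm4 at 158 FPKM in Control blastocysts against 5.48 FPKM in WT embryos. The Prp19 list held 5 and 2 of 10, with Cdc5l at a log2 fold change of 3.04 and Crnkl1 at -2.26. The tri-snRNP list held 5 and 2 of 15, and Nhp2l1, which binds U4 RNA, fell by 2.11 (SE 0.15). The assembly list held 4 and 3 of 15, with Smn1, of the complex that loads the Sm ring, at 1.18 (SE 0.32, limma adjusted p = 0.0104) and Snupn, an import adaptor for snRNPs, at -1.95 (SE 0.22).

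The minor spliceosome, which removes a rare class of introns, was the list with the lowest median, at -0.67. Of its 9 genes 0 rose and 4 fell, where 45.8% of all loci rose and 19.6% fell. Pdcd7 fell by 1.89 (SE 0.33) and Rnpc3 by 1.16 (SE 0.28). The kinases and import factors of SR proteins held 1 that rose, Clk3 at 2.11 (SE 0.54), and 1 that fell, Srpk2 at -1.78 (SE 0.27), of 9. No test of a list as a whole was made, and the stage calls of list genes were not examined under the alternative settings.

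Subcutaneous fat of 4-month-old mice labelled Fzr1-OE and Control was covered by gene ontology tables, one for RNA and one for DNA methylation. Among the symbols in the authors' deposited table of each kind, 0 of the 31 genes were named, out of 449 symbols under 1605 terms for RNA and 119 symbols under 632 terms for methylation, and 0 terms contained splicing in their name. The embryo data list 24257 symbols, so tables this short would name few or none of any 31 genes.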

How the data were processed

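RNA of 11 embryo libraries was analysed. The authors deposited FPKM per gene with confidence bounds, per the file headers, and the submitters' processing notes name the build mm9, HISAT2 2.1.0, Cufflinks 2.2.1 and Cuffdiff without their roles. Starts of loci are 0-based in the files and 1-based here. For fat, the authors deposited gene ontology tables with a p-value per term, per the file headers. ChIP libraries (H3K9me3 and input) were not analysed here.

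Groups came from sample titles. Nothing in the labels states separate cultures or animals for replicates, and the p-values describe spread that may be technical. Depth was estimated by reading the bounds as 2 Poisson standard deviations and covers counting error only.

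Limma 3.58.1 in R 4.3.3 was applied to log2(FPKM + 1), which understates changes of low genes. The moderated two-sided test used an intensity trend and loci averaging 1 FPKM or more, which left out Sf3a2 and Srsf12 in 2-cell embryos and Srsf12 elsewhere. One fit took the 6 libraries from 2-cell embryos, another the 5 from blastocysts, and the stage comparison used all 11. P-values were adjusted over all loci (Benjamini-Hochberg, threshold 0.05). At most the 8 largest rises and 8 largest falls that passed were named (the 5 smallest p-values if fewer than 5 passed), with the remaining members given by role, and up to 2 genes per direction in the other lists. Members and lists were chosen with earlier results of these data known. Alternatives covered the pseudocount (0.1), the filter (none, 5 FPKM), scaling (quantile, upper-quartile), variance estimation (untrended, robust), a replicate block, removal of the trend with transcript length, fits of the compared groups alone and each replicate left out. The tests were also run on simulated data with independent normal noise of each fit's own spread. That setting follows the model, so it cannot show how the tests behave on these libraries. Python 3.11.15, pandas 2.3.3, numpy 2.4.6 and matplotlib 3.10.9 drew tables and figures.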

Additional observations from a re-analysis of the deposited data

How the results depend on the processing

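In the 3 comparisons of 2-cell embryos 0 splicing genes passed under each of the 16 alternatives, while calls over all loci reached 21 for IVF against WT (1 as reported) and 32 for sIVF against IVF (0 as reported), both with a filter of 5 FPKM. For Fzr1-OE against Control the 1 splicing gene that passed became 0 with no filter, 0 with no intensity trend and 2 with a filter of 5 FPKM, and 0 to 2 when a replicate was left out. Calls over all loci, 397 as reported, were 0 with no filter, 41 with no intensity trend and 87 to 350 when a replicate was left out. For the stage comparison 21 to 26 genes passed. Directions reversed for Srsf7 (-0.36 with quantile normalization, -0.14 with upper-quartile scaling), Srsf11 (-0.80 with quantile normalization, -0.57 with upper-quartile scaling and -0.074 with the length trend removed) and Srsf1 (0.37 with the length trend removed). The cause was not tested.

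The labels do not say whether replicate numbers pair the libraries. Deviations of libraries with the same number correlated at -0.00313 to 0.0739 in 2-cell embryos and -0.039 to 0.0269 in blastocysts. In groups of 2 libraries the deviations mirror each other, so few of these values are independent and they cannot exclude pairing. With the replicate block 0 splicing genes passed for Fzr1-OE against Control (Snrpa1 at an adjusted p of 0.162), with 47 calls over all loci, and for the stage comparison 26 passed. Groups held 2 or 3 libraries, which limits precision.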

Other observations

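Srsf4 was the least repeatable of the genes above 0 in every library. It had 1.82 and 5.71 FPKM in sIVF, 0.530 and 20.8 FPKM in IVF, and 1.72 and 10.9 FPKM in WT 2-cell embryos, on an estimated 37.4, 112, 11.2, 471, 24.0 and 267 fragments.

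Changes between stages varied with transcript length, as estimated from the deposited bounds. Over 10 classes of equal size the median log2 fold change of Control blastocysts over WT 2-cell embryos was 1.15 in the shortest, 1.62 in the third and -0.31 in the longest. The shortest class held 7 of the splicing genes. With each library's length trend removed, 18 of the 30 genes rose and 7 fell.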
